A study of Mus musculus with 17 samples.

Results

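The AP-1 transcription factors described here are 8 genes: Fos, Fosb and Fosl2 of the FOS family, Jun, Junb and Jund of the JUN family, and the related Atf3 and Maff. They were picked from the FOS, JUN, ATF and MAF families with earlier results of these data known. Their probes are those that the platform annotation maps to these symbols. The annotation gave 12 such probes of the 45281 in the value table, and these 8 genes are among 19057 symbols in all. Each gene is given by its brightest probe over all arrays. Total RNA of mouse uterus was hybridised to Illumina bead arrays, 9 from wild-type animals (WT) and 8 from Egr1 knockout animals (KO). Within each genotype the arrays were of uteri at 0, 3, 6 or 24 h after estradiol (E2), with 3 arrays in the WT 3 h group and 2 in each of the other 7 groups. The design asks how the uterus responds to E2 over time and whether that response differs without Egr1, which encodes an immediate-early zinc finger factor. How much E2 was given, how old the mice were, whether they were ovariectomised or received vehicle, and how Egr1 was disrupted is not given here by any label. The labels do not tie the samples within a group to different animals, so a p-value here reflects spread among samples that may be only technical.

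AP-1 is a family of dimers of basic leucine zipper proteins. JUN proteins pair with each other or with FOS proteins, whereas FOS proteins need a JUN partner, and the dimers bind short DNA elements in promoters and enhancers. Many of the genes are immediate-early genes, transcribed within minutes of a growth factor or hormone signal through factors that are already present, and their transcripts are short-lived. In the uterus, Fos and Jun are long known as early targets of estrogen.

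All values are log2 levels that the authors had already normalized between arrays, with the same quantiles on every array, so every change is measured against the rest of its own array. The median of each array was 8.20, and probes near it are dim. Arrays of a group correlated at 0.990 to 0.997 over all 45281 probes of the table. All 8 genes passed the filter, which asked that a probe exceed the median of its array on 2 or more of the 17 arrays, but Fosb lay above it on 10 arrays and Maff on 11, mostly those at 3 and 6 h. The probe for Egr1 (ILMN_2662926) read 13.48 and 13.63 on the KO 0 h arrays and 12.24 and 12.51 on the WT 0 h arrays. Its group means differed, KO minus WT, by 1.18 at 0 h, -0.15 at 3 h, 0.73 at 6 h and 1.65 at 24 h. So the arrays labelled KO were not the lower ones at 0, 6 or 24 h. Whether the probe reads a stretch that the mutation removes is not known from the sources used here, so it does not check the labels, and KO and WT below mean arrays labelled so. Of the markers of the uterus, Esr1, Pgr, Hand2, Emx2 and Hoxa11 were measured, and Hoxa10 and Wt1 did not pass the filter. KO 0 h replicate 2 stood apart in the 7 granulocyte markers, whose mean lay 1.15 above its average over all arrays, against -0.05 on KO 0 h replicate 1. WT 0 h replicate 1 correlated at 0.974 with the 24 h arrays, against 0.950 to 0.952 for the other 3 arrays at 0 h.

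At 3 h after E2, all 8 genes had risen in WT uterus and 7 of 8 in KO uterus, with Fos far ahead. Fos rose 11.2-fold in WT and 9.11-fold in KO. Junb, Fosl2, Atf3 and Jund rose between 2.06-fold and 3.93-fold in the 2 genotypes, and Jun and Fosb rose by less than 2-fold. Maff rose 1.39-fold in WT, and in KO its change of 0.18 did not pass the test. The test was limma's moderated test with adjustment over all 14737 genes, and a call is an adjusted p under 0.05. In WT 22.2% of all genes were called higher at 3 h, and in KO 19.0%. The median change of the 8 genes was 1.39 in WT and 1.10 in KO, against -0.01 over all genes in either. Since the 8 were picked with earlier results known, their count and median beside those of all genes are a description only. In whole tissue, fewer cells of a type and less RNA per cell cannot be told apart. Beside these rises, all 7 stromal fibroblast markers fell in WT at 3 h and 5 of 7 in KO, and all 6 measured adipocyte markers fell in both. Of all genes, 24.5% were called lower at 3 h in WT and 21.4% in KO. The mean of the fibroblast markers was 12.16 to 12.72 at 0 h and 11.04 to 11.37 at 3 h in WT, and 11.85 to 12.14 and 11.23 to 11.47 in KO. The mean of the adipocyte markers went from 9.81 to 10.32 down to 8.53 to 9.11 in WT, and from 10.84 to 10.89 down to 8.34 to 9.46 in KO. The part of these shifts in the AP-1 result was not tested.

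Fos encodes the prototype FOS protein, a potent partner of JUN in transactivation. Its promoter is shown because Fos had the largest change of the set. The 250 bases before its RefSeq start (GRCm38.p6, chr12:85473640-85473889, plus strand) hold 2 copies of TGACG, the core of the cyclic AMP response element, and a TATA box, all in capitals.

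Fos: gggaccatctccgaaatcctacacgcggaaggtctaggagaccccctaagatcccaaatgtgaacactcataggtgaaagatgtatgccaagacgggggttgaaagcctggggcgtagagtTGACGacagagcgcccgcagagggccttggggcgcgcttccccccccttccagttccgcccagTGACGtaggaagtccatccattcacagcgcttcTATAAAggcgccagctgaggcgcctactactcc

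On the WT arrays Fos read 8.99 and 8.98 at 0 h and 12.79, 12.54 and 12.09 at 3 h. It then read 10.79 and 10.74 at 6 h and 9.96 and 10.08 at 24 h. Each time was clear of the others, and 24 h lay above 0 h. The WT changes from 0 h were 3.49 ± 0.19 (SE) at 3 h (adjusted p = 8.99e-09), 1.78 ± 0.21 at 6 h (9.41e-06) and 1.04 ± 0.21 at 24 h (0.00134). On the KO arrays Fos read 9.20 and 9.33 at 0 h, 12.67 and 12.24 at 3 h, 11.40 and 11.98 at 6 h, and 9.64 and 9.38 at 24 h. The KO arrays reached the WT range at 3 h, lay above it at 6 h and below it at 24 h. The KO changes were 3.19 ± 0.21 at 3 h (7.95e-08) and 2.42 ± 0.21 at 6 h (6.12e-07), while the 0.24 at 24 h did not pass (0.407).

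Fosb encodes a FOS protein whose splice forms differ in their transactivation domain. Its promoter (chr7:19310046-19310295, minus strand) is shown beside that of Fos because it pairs a TGACG with the letters GCGGGGGCG, a form of the site that EGR proteins bind (searched as GCGNGGGCG), in capitals.

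Fosb: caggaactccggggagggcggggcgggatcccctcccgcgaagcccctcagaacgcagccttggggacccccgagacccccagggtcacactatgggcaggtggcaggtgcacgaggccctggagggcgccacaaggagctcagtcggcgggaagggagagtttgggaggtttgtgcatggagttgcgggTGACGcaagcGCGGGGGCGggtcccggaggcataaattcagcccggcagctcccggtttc

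Fosb read 8.03 and 8.09 on the WT arrays at 0 h and 9.30, 8.77 and 8.76 at 3 h, with replicate 1 well above the other two. The KO arrays read 8.17 and 8.23 at 0 h and 8.70 and 8.76 at 3 h. The groups did not overlap in either genotype. The rise at 3 h was 0.88 ± 0.12 in WT (3.34e-05) and 0.53 ± 0.13 in KO (0.00533). By 6 h the WT arrays read 8.27 and 8.40 and the KO arrays 8.52 and 8.46, and the changes of 0.28 and 0.29 did not pass (0.113 and 0.0996). At 24 h all 4 arrays lay between 8.01 and 8.15, below the array median.

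Fosl2 encodes FRA-2, a FOS protein without the strong transactivation domain of FOS. Its promoter (chr5:32136222-32136471, plus strand) is shown because Fosl2 is the gene whose course differed most clearly between the genotypes. It holds GCGGGGGCG as well, and neither TGACG nor a TATA box.

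Fosl2: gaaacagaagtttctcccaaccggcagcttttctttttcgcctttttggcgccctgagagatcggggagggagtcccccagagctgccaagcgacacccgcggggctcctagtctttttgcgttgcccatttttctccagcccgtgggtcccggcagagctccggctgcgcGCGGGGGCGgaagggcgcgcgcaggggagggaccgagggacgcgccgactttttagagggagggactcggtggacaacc

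In WT Fosl2 read 10.97 and 11.11 at 0 h, 12.64, 12.71 and 12.64 at 3 h, 12.21 and 12.24 at 6 h, and 11.35 and 11.44 at 24 h. In KO it read 11.29 and 11.23 at 0 h, 12.50 and 12.31 at 3 h, 12.36 and 12.46 at 6 h, and 10.89 and 10.81 at 24 h. WT uterus thus read highest at 3 h, the first time sampled after E2, and was still above its start at 24 h. KO uterus read alike at 3 and 6 h and ended below its start. The difference between the genotypes in the step from 3 to 6 h was not called by limma (0.45, adjusted p = 0.0889). The changes from 0 h in WT were 1.62 ± 0.07 at 3 h (1.52e-09), 1.18 ± 0.07 at 6 h (5.70e-08) and 0.36 ± 0.07 at 24 h (0.00154). In KO they were 1.15 ± 0.07 at 3 h (6.31e-08), 1.15 ± 0.07 at 6 h (7.26e-08) and -0.41 ± 0.07 at 24 h (3.44e-04). The other 2 Fosl2 probes (ILMN_2718801 and ILMN_2768924; the one used is ILMN_1252481) are dim, with means of 8.16 and 8.04, and their group means moved by at most 0.14 from 0 h. With each array centred on housekeeping genes, which themselves mostly rose by 24 h, the WT change at 24 h turned to -0.16.

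Jun encodes the prototype JUN protein, whose activity is raised by JNK phosphorylation. On the WT arrays it read 9.46 and 9.71 at 0 h, 10.37, 10.37 and 10.24 at 3 h, 9.84 and 9.65 at 6 h, and 9.04 and 9.13 at 24 h. On the KO arrays it read 9.98 and 9.87 at 0 h, 10.57 and 10.35 at 3 h, 9.62 and 10.11 at 6 h, and a mean of 8.99 ± 0.01 (SD, n = 2) at 24 h. Jun was above its start at 3 h alone, overlapped it at 6 h, and was below it on all 4 arrays at 24 h. It rose by 0.74 ± 0.12 in WT (1.71e-04) and by 0.54 ± 0.13 in KO (0.0052) at 3 h. At 24 h it fell by 0.50 in WT (0.00919) and by 0.93 in KO (5.60e-05). The KO rise was not called without KO 3 h replicate 1 (0.42, adjusted p = 0.0614). The WT fall was not called without WT 0 h replicate 2 (-0.37, 0.107) or WT 24 h replicate 1 (-0.46, 0.0666).

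Junb encodes a JUN protein that activates weakly on its own and can restrain JUN. The 250 bases before its start (chr8:84978749-84978998, minus strand) are shown as the JUN family promoter with a TGACG, in capitals, since Junb had the largest rise of that family.

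Junb: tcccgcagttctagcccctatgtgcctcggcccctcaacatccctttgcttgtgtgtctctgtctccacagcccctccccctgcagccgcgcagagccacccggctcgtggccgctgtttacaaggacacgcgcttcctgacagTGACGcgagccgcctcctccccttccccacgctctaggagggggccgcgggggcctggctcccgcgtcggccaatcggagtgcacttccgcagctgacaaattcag

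Junb read 9.59 and 9.54 at 0 h and 11.66, 11.55 and 11.20 at 3 h in WT, and 9.64 and 9.88 against 11.75 and 11.71 in KO. At 6 h the WT arrays read 10.62 and 10.59 and the KO arrays 10.81 and 11.32. At 24 h they read 9.90 and 9.97, and 9.68 and 9.56. Junb was highest at 3 h in both genotypes, with KO 6 h replicate 2 high and the KO arrays at 24 h back among those at 0 h. At 3 h Junb rose by 1.91 ± 0.14 in WT (1.12e-07) and 1.97 ± 0.15 in KO (3.50e-07), and at 6 h it was 1.04 (7.33e-05) and 1.31 (8.53e-06) above 0 h. At 24 h neither the 0.37 in WT (0.0742) nor the -0.13 in KO (0.558) passed. The other Junb probe has a mean of 8.05 and moved by no more than 0.16.

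Jund encodes the JUN protein that is usually made constitutively in resting cells. Here it read 8.32 and 8.36 at 0 h and 9.42, 9.57 and 9.48 at 3 h in WT, and 8.46 and 8.40 against 9.85 and 9.72 in KO. The KO arrays were above all WT arrays at 3 h. At 6 h the WT arrays read 8.73 and 8.64 and the KO arrays 8.98 and 9.04, again with KO on top, and at 24 h all 4 lay between 8.42 and 8.49. Jund rose at 3 h by 1.15 ± 0.06 in WT (6.72e-09) and 1.36 ± 0.07 in KO (1.33e-08), and was still 0.35 (5.96e-04) and 0.58 (5.96e-06) higher at 6 h. The changes at 24 h, 0.14 in WT (0.113) and 0.02 in KO (0.827), did not pass. Centred on housekeeping genes, they became -0.38 (0.0107) and -0.61 (1.93e-04).

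Atf3 encodes a stress-inducible ATF/CREB protein that pairs with JUN proteins and often represses. It read 8.38 and 8.39 at 0 h and 10.09, 10.05 and 9.89 at 3 h in WT, and 8.82 and 8.73 against 10.01 and 9.63 in KO. The WT arrays at 6 h read 8.91 and 8.88, close together, while the KO arrays read 9.22 and 9.79. At 24 h the WT arrays read 8.22 and 8.29 and the KO arrays 8.29 and 8.15. Atf3 was thus transient in both genotypes, and the 2 KO arrays at 6 h lay far apart. The rise at 3 h was 1.62 ± 0.14 in WT (3.95e-07) and 1.04 ± 0.15 in KO (7.25e-05), and that at 6 h 0.51 (0.0126) and 0.73 (0.00108). The WT rise at 6 h was not called without WT 6 h replicate 1 (0.50, 0.0626). At 24 h the KO level had fallen 0.55 below 0 h (0.00743), a call lost without KO 24 h replicate 2 (-0.48, 0.0633), and the WT change was -0.14 (0.56).

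Maff encodes a small MAF protein, which lacks a transactivation domain and pairs with CNC and other leucine zipper proteins. RefSeq gives it 3 starts, and the bases before the second (chr15:79347270-79347519, plus strand) are shown because they alone among the 10 windows of the 8 genes hold the full cyclic AMP response element, TGACGTCA. They also hold GCGTGGGCG, and both are in capitals.

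Maff: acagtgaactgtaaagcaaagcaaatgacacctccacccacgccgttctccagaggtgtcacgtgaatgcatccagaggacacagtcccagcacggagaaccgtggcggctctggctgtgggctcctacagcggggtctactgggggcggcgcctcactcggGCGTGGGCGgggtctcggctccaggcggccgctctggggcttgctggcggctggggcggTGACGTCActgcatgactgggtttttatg

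Maff read 8.08 and 8.22 at 0 h, 8.57, 8.62 and 8.69 at 3 h, 8.43 and 8.38 at 6 h, and 8.15 and 8.02 at 24 h in WT. In KO it read 8.35 and 8.20, then 8.56 and 8.36, then 8.48 and 8.64, and last 8.04 and 8.07. It stayed within 0.5 of the array median throughout, so its changes are small ones of a dim probe. It rose in WT by 0.48 ± 0.08 at 3 h (1.30e-04) and 0.25 at 6 h (0.0253), and in KO by 0.29 at 6 h (0.0113), the 0.18 at 3 h not passing (0.101). It fell by 0.22 in KO at 24 h (0.044). Apart from the WT rise at 3 h, single arrays decided these calls. Without KO 3 h replicate 2 the KO rise at 3 h was called (0.28, 0.0301). Without WT 0 h replicate 1, or either WT 6 h array, the WT rise at 6 h was not (0.18 to 0.28, 0.0627 to 0.175). The KO rise at 6 h was lost without KO 0 h replicate 2 or KO 6 h replicate 2 (0.21 for each, 0.12 and 0.114), and the fall at 24 h without KO 0 h replicate 1 or either KO 24 h array (-0.15 to -0.24, 0.108 to 0.305). The second Maff probe moved by at most 0.07.

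**Figure D1:**
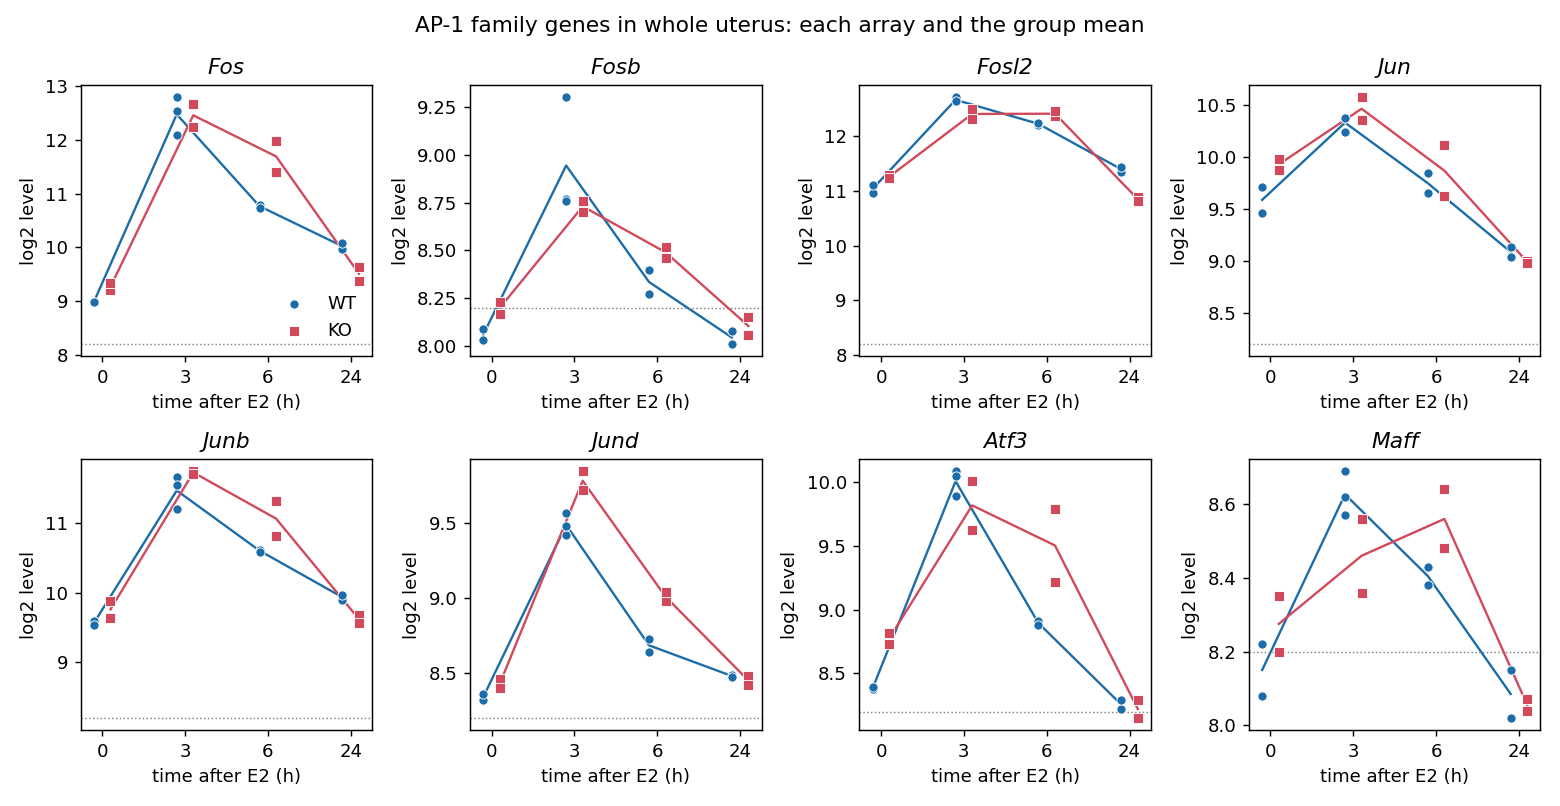
Log2 level of each of the 8 genes (vertical axis, a separate scale per gene) on every array against time after E2 (horizontal axis in h, times evenly spaced and not to scale), with circles for WT, squares for KO, lines through the group means and a dotted line at the array median of 8.20. Every gene is highest at 3 h, apart from Maff and Fosl2 in KO, which are as high or higher at 6 h, and KO squares lie above WT circles at 6 h for each gene except Jun, whose groups overlap.

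At 6 h the set had begun to return, and its members did so unevenly. In WT 6 of 8 genes were still higher than at 0 h, as were 6 of 8 in KO, where 21.9% and 21.8% of all genes were called higher. Jun and Fosb were the 2 that were not called in either genotype. Fos kept 51% of its 3 h change at 6 h in WT and 75.9% in KO, and Fosl2 72.8% and 100%. Atf3 kept 31.5% and 70.2%, and Jund 30.4% and 42.6%. These percentages are ratios of log2 changes, with no test of their own. Without WT 6 h replicate 1 the WT count was 4.

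The step from 3 to 6 h was downward for all 8 genes in WT, where 12.7% of all genes were called lower, and for 4 of 8 in KO, where 11.7% were. In WT Fos fell by 1.71 (4.23e-05) and Atf3 fell by 1.11 (8.08e-05), and the changes of the other 6 ran from -0.87 to -0.23. In KO Jund fell by 0.78 (7.48e-06), Fos by 0.77 (0.0164), Junb by 0.66 (0.00672) and Jun by 0.60 (0.00569). KO Fosl2 (0.01), Maff (0.10), Fosb (-0.24) and Atf3 (-0.32) did not pass. The KO count rests on KO 6 h replicate 1, without which 1 gene was called, Fos, Jun and Junb reading -0.48 (0.189), -0.35 (0.0756) and -0.40 (0.093). Without KO 3 h replicate 1 Fos was not called (-0.55, 0.13), and without KO 6 h replicate 2 Atf3 was (-0.60, 0.00445). In WT the Maff call was lost without any of the 5 arrays concerned (-0.20 to -0.25, 0.0505 to 0.219) and the Jun call without WT 6 h replicate 2 (-0.48, 0.0603). The direct test of whether the step differed between the genotypes called none of the 8 in limma, with 4 at an unadjusted p under 0.05, against 0.149% of all genes called. The largest differences were 0.94 for Fos (0.229), 0.80 for Atf3 (0.146) and 0.45 for Fosl2 (0.0889), with KO falling less. Without KO 3 h replicate 1 the test called Fosl2 (0.54, 0.0267) and Atf3 (0.99, 0.0429), and without KO 6 h replicate 1 it called Atf3 (1.08, 0.0118).

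From 6 to 24 h all 8 genes fell in KO and 7 of 8 in WT, where 18.6% and 19.0% of all genes were called lower. In KO Fos fell by 2.18 (2.94e-06), Fosl2 fell by 1.56 (1.96e-08), Junb fell by 1.44 (7.08e-06) and Atf3 fell by 1.28 (1.56e-05), all more than 2-fold, while the changes of the other 4 ran from -0.87 to -0.38. In WT Fosl2 fell by 0.83 (1.57e-06) and Fos fell by 0.74 (0.011), and the changes of Jun, Junb, Jund, Atf3 and Maff ran from -0.67 to -0.20. The WT Fosb change was -0.29 (0.109). The WT count was 4 without WT 6 h replicate 1, 5 without WT 24 h replicate 1 and 5 without WT 24 h replicate 2. The first 2 of these took away the call of Fos (-0.72 and -0.69, 0.0627 and 0.0717) and the first and last that of Maff (-0.29 and -0.25, 0.058 and 0.0856). All 3 took away that of Jund (-0.16 to -0.21, 0.0805 to 0.171). The KO Fosb call was lost without any of its 4 arrays (-0.33 to -0.43, 0.0781 to 0.169). Over the same step the median change of 11 epithelial markers was 0.62 in WT and 0.25 in KO. That of the 7 fibroblast markers was 1.28 in WT and 0.78 in KO. The median over all genes was -0.01 in either genotype. The part of these shifts in the AP-1 result was not tested.

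By 24 h most of the set was back near or below its level at 0 h, and Fosl2 was called on opposite sides of it in the 2 genotypes. In WT Fos and Fosl2 were still called higher and Jun lower, 3 of 8 genes, where 37.9% of all genes were called in either direction. In KO none was called higher and 4 of 8 were called lower, namely Jun, Atf3, Fosl2 and Maff, where 23.1% of all genes were called lower and 22.5% higher. The median change of the 8 genes was 0.06 in WT and -0.18 in KO, against 0.00 and -0.00 over all genes. Centring on 11 housekeeping genes shifted the WT groups by -0.20 at 0 h and 0.32 at 24 h and the KO groups by -0.30 and 0.34, and then called 6 of the 8 genes in WT and 7 in KO. Without KO 24 h replicate 2 the KO count was 2. All 8 measured macrophage markers fell in KO at 24 h, their mean level going from 10.02 to 10.89 at 0 h to 9.22 to 9.39. The part of that shift in the AP-1 result was not tested.

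**Figure D2:**
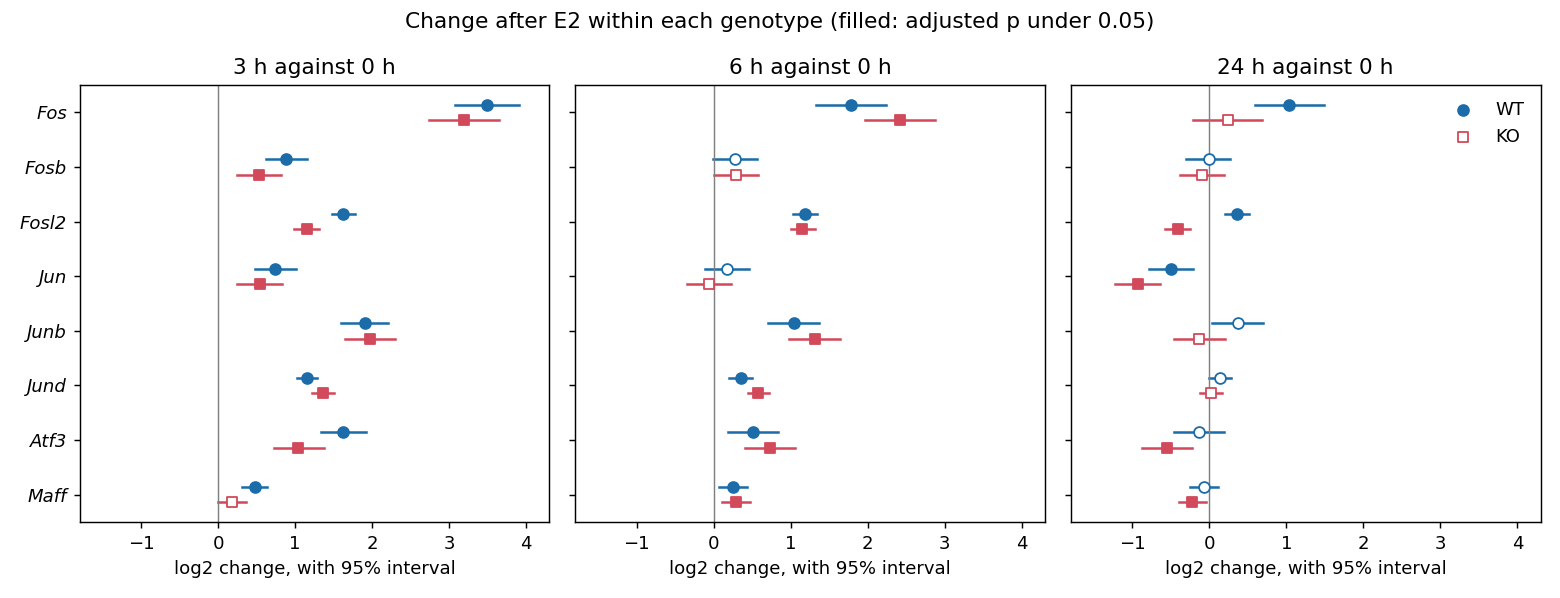
Log2 change of each gene from 0 h (horizontal axis) at 3, 6 and 24 h, with circles for WT, squares for KO, bars for 95% intervals of the model and filled symbols for an adjusted p under 0.05. Fos stands furthest right at 3 h in both genotypes (3.49 and 3.19), and Fosl2 is the gene that is filled on opposite sides of 0 at 24 h.

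Before E2, limma called no AP-1 gene different between the genotypes, where 4.43% of all genes were, and 3 of 8 had an unadjusted p under 0.05. For 7 of 8 genes both KO arrays read above both WT arrays, Maff being the exception, where 22.1% of all genes lay higher without overlap. The differences, KO minus WT, ran from 0.08 for Jund to 0.39 for Atf3 (0.176), with 0.34 for Jun (0.184) and 0.22 for Fosl2 (0.116). Without WT 0 h replicate 2 the Fosl2 difference was called (0.29, 0.0455). At 0 h the median KO minus WT difference was 0.85 over 6 adipocyte markers (0 called by limma, 4 at an unadjusted p under 0.05), 0.63 over 8 macrophage markers (1 called higher) and -0.37 over 7 fibroblast markers (2 called lower). The granulocyte markers were high on KO replicate 2 alone, as given above. The part of those cells in the AP-1 levels was not tested.

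At 3 h, 2 of 8 genes were called different, where 4.23% of all genes were. Jund was higher in KO by 0.30 ± 0.06 (0.0145) and Fosl2 lower by 0.26 on the log2 scale (-0.26 ± 0.07, 0.0474). Neither group overlapped the other for these genes. The Fosl2 call was lost without KO 3 h replicate 2 (-0.16, 0.36) or any of the 3 WT 3 h arrays (-0.23 to -0.27, 0.0808 to 0.127), and that of Jund without KO 3 h replicate 1 (0.23, 0.0706). For Fos, the genotypes read 12.46 and 12.47 on average, and the interval of the difference ran from -0.43 to 0.39.

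At 6 h, 7 of 8 genes read higher on both KO arrays than on both WT arrays, where 20.2% of all genes lay so, and 1 was called, where 0.271% of all genes were called higher. That gene was Jund (0.32 ± 0.07, 0.0451). Its call was lost without KO 6 h replicate 2 (0.29, 0.322), WT 6 h replicate 1 (0.36, 0.228) or WT 6 h replicate 2 (0.28, 0.338). Fos was 0.92 ± 0.21 higher (0.0609), Atf3 0.60 ± 0.15 (0.0921) and Junb 0.46 ± 0.15 (0.229), with KO 6 h replicate 2 the higher array of each. Without KO 6 h replicate 1, so that replicate 2 alone stood for the group, Fos (1.22, 0.00936), Junb (0.72, 0.0167) and Atf3 (0.89, 0.00222) were called. The mean of the adipocyte markers was 9.63 on KO 6 h replicate 2, 8.29 on replicate 1 and 8.20 and 8.31 on the WT arrays. The part of those cells in the Fos, Junb and Atf3 levels was not tested.

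At 24 h, Fosl2 was lower in KO by 0.55 on the log2 scale (-0.55 ± 0.07, 1.46-fold, 6.22e-04), where 4.27% of all genes were called lower. It was the 1 gene of 8 called, and it was called whichever array was left out, though its second brightest probe read -0.07. Fos (-0.51, 0.168), Junb (-0.32, 0.267) and Jun (-0.09, 0.813) also had no KO array as high as a WT array, where 29.6% of all genes lay so. The other 4 genes overlapped between the genotypes.

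**Figure D3:**
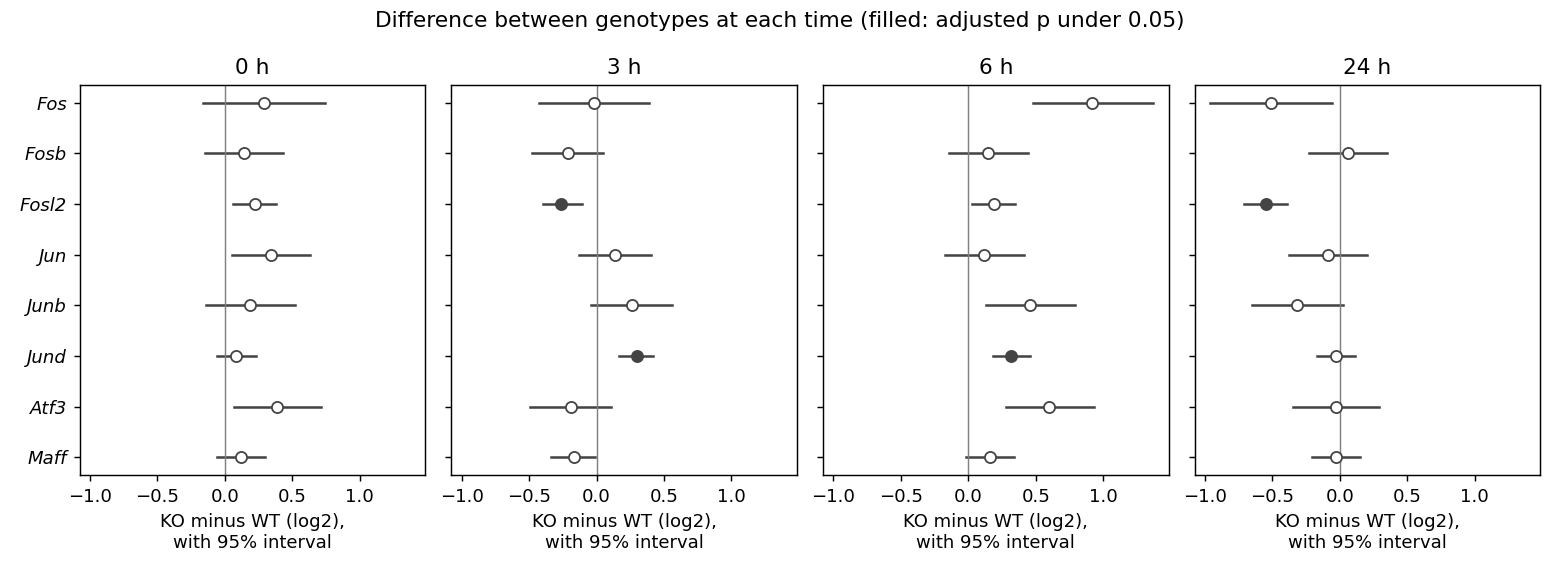
KO minus WT on the log2 scale (horizontal axis) for each gene at 0, 3, 6 and 24 h, with bars for 95% intervals of the model and filled symbols for an adjusted p under 0.05. The filled points are Fosl2 (-0.26) and Jund (0.30) at 3 h, Jund (0.32) at 6 h and Fosl2 (-0.55) at 24 h.

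Whether the response itself differed was tested as the KO change minus the WT change. The limma F-test over the 3 times together called Fosl2 (adjusted p = 0.00224) and Fos (0.0402), where 6.83% of all genes were called. Fosl2 was called whichever of the 17 arrays was left out (highest 0.0129), and Fos in 7 of the 17 cases (0.0129 to 0.125). Fosl2 rose less in KO at 3 h, by -0.47 ± 0.10 (0.0399), where 0.489% of all genes were called lower. Its response was also lower at 24 h, by -0.77 ± 0.10 (0.00134), where 3.15% were. The 3 h difference was lost without KO 0 h replicate 1 or 2 (-0.45 and -0.50, 0.104 and 0.113), KO 3 h replicate 2 (-0.38, 0.114), WT 0 h replicate 1 (-0.41, 0.104) or any WT 3 h array (-0.45 to -0.49, 0.0606 to 0.0864). The 24 h difference was called whichever array was left out. In the same test at 24 h, 5 of 11 epithelial markers (median -0.19) and 2 of 8 macrophage markers (median -1.10) were called with a lower response in KO, and 0 of 7 fibroblast markers (2 at an unadjusted p under 0.05 in limma). The mean of the epithelial markers was 10.95 and 10.91 on the WT 24 h arrays, 10.68 and 10.60 on the KO 24 h arrays and 10.01 to 10.17 on the arrays at 0 h. The part of these cells in the Fosl2 result was not tested. At 6 h limma called none of the 8, with 2 at an unadjusted p under 0.05, where 0.400% of all genes were called, and the interval for Fosl2 ran from -0.25 to 0.19.

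The fall from 6 to 24 h differed between the genotypes for 2 of 8 genes, where 1.46% of all genes were called with the larger fall in KO. For Fos the KO step was 1.43 larger (-1.43 ± 0.29, 0.0219) and for Fosl2 0.74 larger (-0.74 ± 0.10, 0.00332). The Fos call was lost without KO 6 h replicate 2 (-1.14, 0.0738) and without either array of the WT 6 h, WT 24 h and KO 24 h groups (-1.31 to -1.56, 0.052 to 0.0945). Without KO 6 h replicate 1 Junb (-1.03, 0.00987) and Atf3 (-0.92, 0.00845) were called too.

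Ordered by mean level over the 8 groups, every gene had a 3 h group on top, that of WT for Fos, Fosb, Fosl2, Atf3 and Maff and that of KO for Jun, Junb and Jund. The other 3 h group came second except for Fosl2 and Maff, where KO 6 h did. Fos ran WT 3 h, KO 3 h, KO 6 h, WT 6 h, WT 24 h, KO 24 h, KO 0 h and WT 0 h, at means of 12.47, 12.46, 11.69, 10.77, 10.02, 9.51, 9.27 and 8.98, and the first 2 alone overlapped. Fosl2 ran WT 3 h (12.66), KO 6 h and KO 3 h (12.41 each, overlapping), WT 6 h (12.22), WT 24 h (11.40), KO 0 h (11.26), WT 0 h (11.04) and KO 24 h (10.85). The pooled SD within groups was 0.06 for Jund and 0.07 for Fosl2, against 0.25 for Fos, 0.18 for Junb and 0.18 for Atf3. Junb ran KO 3 h (11.73), WT 3 h (11.47), KO 6 h (11.07), WT 6 h (10.61) and WT 24 h (9.94), with KO 0 h, KO 24 h and WT 0 h at 9.76, 9.62 and 9.57 overlapping in turn at the bottom, and WT 3 h overlapping KO 6 h. Jund ran KO 3 h (9.79), WT 3 h (9.49), KO 6 h (9.01) and WT 6 h (8.69) without overlap, then WT 24 h (8.48), KO 24 h (8.45) and KO 0 h (8.43) with overlap, and WT 0 h (8.34) last. For Atf3 the top 3 groups, WT 3 h (10.01), KO 3 h (9.82) and KO 6 h (9.50), overlapped in turn, and the bottom 2, WT 24 h (8.25) and KO 24 h (8.22), did too. For Fosb the 3 h groups overlapped at 8.94 and 8.73, followed by KO 6 h (8.49), WT 6 h (8.34) and KO 0 h (8.20), and the last 3 groups overlapped between 8.05 and 8.11. For Jun the 3 h groups overlapped at 10.46 and 10.33, the 0 and 6 h groups of both genotypes overlapped in turn between 9.58 and 9.93, and WT 24 h (9.08) and KO 24 h (8.99) came last. Maff fell into an upper set of 3 and 6 h groups between 8.40 and 8.63 and a lower set of 0 and 24 h groups between 8.05 and 8.27, with neighbours overlapping within each set.

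Other genes of these families went in both directions. Of the other FOS- and JUN-related genes 4 of 5 were measured, Fosl1 not passing the filter. Jdp2, whose product represses as a partner of JUN, rose by 1.43 ± 0.17 in WT (9.38e-06) and 1.36 ± 0.19 in KO (5.09e-05) at 3 h. The other 3 measured, Batf, Batf2 and Batf3, the leucine zipper partners best known in immune cells, ran from -0.09 to 0.14 and were not called. Over all genes at 3 h, 22.2% were called higher and 24.5% lower in WT, and 19.0% and 21.4% in KO. The list of ATF and CREB genes had 13 measured, counting Ddit3, which belongs to the C/EBP family. Of these 13, 6 rose and 2 fell in WT at 3 h, and 6 rose and 3 fell in KO, with medians of 0.11 and 0.31. Atf4, the effector of the integrated stress response, rose by 1.39 ± 0.07 in WT (7.51e-09) and 1.11 ± 0.08 in KO (1.86e-07). Atf5 rose by 0.83 (4.79e-05) and 0.58 (0.00258). Crem, which includes cyclic AMP inducible repressor forms, rose by 0.77 in WT (6.13e-06). From 6 to 24 h 10 of the 13 fell in WT and 9 in KO, where 19.0% and 18.6% of all genes did, and Ddit3, the CHOP gene, fell by 1.98 (4.21e-07) and 1.74 (1.09e-06).

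Of 12 genes of the MAF, CNC and BACH group 8 were measured, and 1 rose and 2 fell in WT at 3 h while 2 rose and 1 fell in KO, shares near or below those of all genes given above (22.2% higher in WT, 19.0% in KO). Nfe2l3 fell by 0.75 in WT (2.54e-05) and 0.80 in KO (4.58e-05), and Nfe2l1, an activator of proteasome genes, rose by 0.60 (3.17e-06) and 0.45 (1.30e-04). Bach1, a repressor that pairs with small MAF proteins, fell by 0.60 in WT (1.75e-04), and the KO response at 3 h was 0.69 ± 0.15 higher (0.0428).

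**Figure D4:**
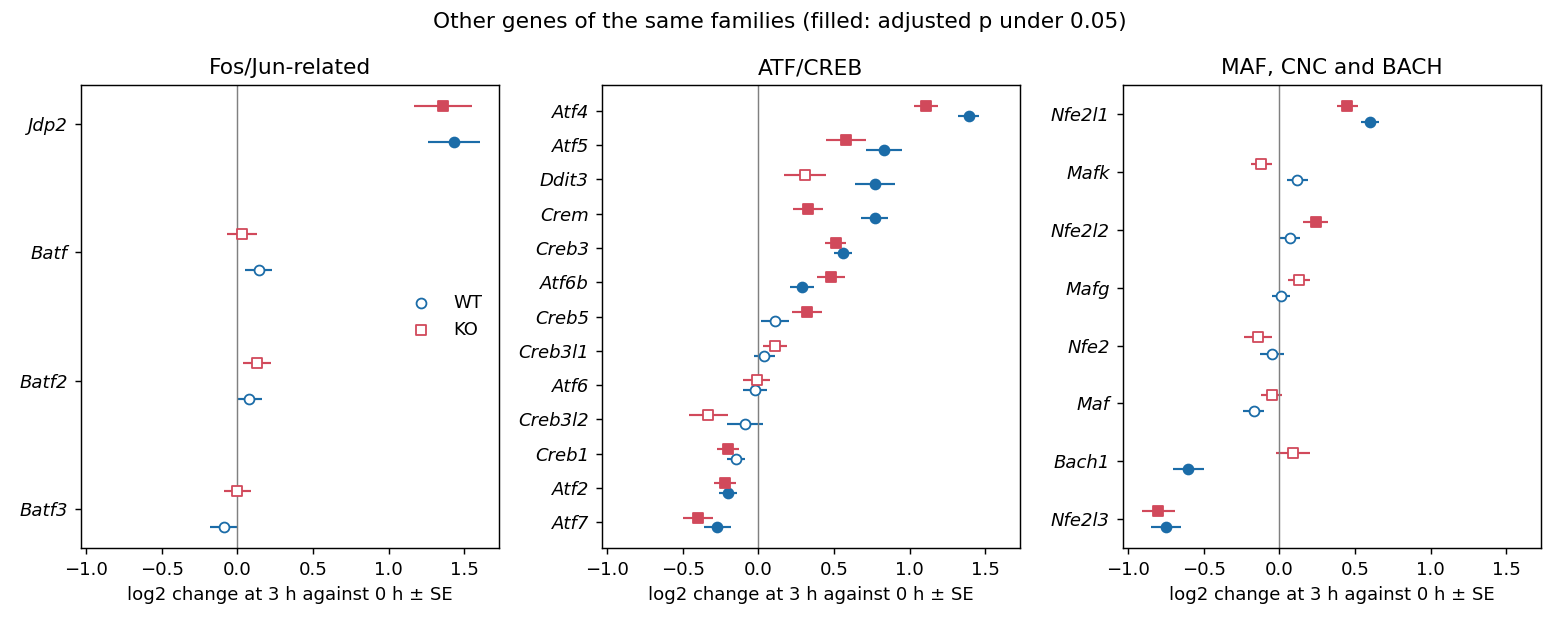
Log2 change at 3 h from 0 h (horizontal axis) of the measured FOS/JUN-related, ATF/CREB (counting Ddit3) and MAF, CNC and BACH genes outside the 8. Circles are WT, squares KO, bars the SE and filled symbols an adjusted p under 0.05. Jdp2 (1.43 and 1.36) and Atf4 (1.39 and 1.11) lie furthest right, and Nfe2l3 (-0.75 and -0.80) furthest left.

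Upstream of AP-1, growth factor and hormone signals act through MAP kinase cascades and serum response factor. Of 22 such genes 16 were measured. At 3 h 7 rose and 4 fell in WT, and 6 rose and 3 fell in KO, with list medians of 0.20 and 0.06. Of all genes, 22.2% were called higher in WT and 19.0% in KO, and 24.5% and 21.4% lower. Srf, the factor that drives Fos through the serum response element, rose by 1.35 ± 0.11 in WT (2.37e-07) and 0.90 ± 0.12 in KO (3.2e-05). Its response was 0.64 lower in KO at 24 h (-0.64 ± 0.17, 0.034). Map2k1, a MAP kinase kinase, rose by 0.98 (1.2e-07) and 0.74 (5.82e-06), and Map2k3, a kinase of p38, by 0.81 (1.72e-07) and 0.70 (2.54e-06). Mapk8, which encodes JNK1, fell by 0.66 (6.1e-06) and 0.54 (1.21e-04).

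Genes reported elsewhere as AP-1 targets went in both directions. Of 30 such genes 24 were measured. In WT 11 rose and 6 fell at 3 h, and in KO 7 rose and 5 fell, with medians of 0.09 and 0.05. Of all genes, 22.2% were called higher in WT and 19.0% in KO, and 24.5% and 21.4% lower. Vegfa, the angiogenic factor, rose by 1.86 ± 0.11 in WT (2.34e-08) and 2.20 ± 0.12 in KO (3.05e-08). Il11, a cytokine of decidualization, rose by 1.65 ± 0.10 (2.36e-08) and 1.11 ± 0.11 (2.92e-06) and was lower in KO than in WT at 3 h (-0.44 ± 0.10, 0.0258). Mmp10, a matrix protease, fell by 1.21 in WT (8.1e-06). Ccnd1, which encodes cyclin D1, was lower in KO at 0 h (-0.51, 0.0133) and 3 h (-0.54, 0.00644) and higher at 24 h (0.47, 0.0132), and its response was 0.97 ± 0.15 higher in KO at 24 h (0.00269). From 6 to 24 h 11 of the 24 fell in WT and 10 in KO, where 19.0% and 18.6% of all genes did.

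Other immediate-early genes gave a wider setting, Egr1 among them. Of 26 listed, 25 were measured, and 20 rose and 2 fell in WT at 3 h, against 15 and 2 in KO. Beside these, 22.2% and 19.0% of all genes were called higher and 24.5% and 21.4% lower. Socs3, a feedback inhibitor of cytokine signalling, rose by 3.74 ± 0.17 in WT (2.28e-09) and 3.69 ± 0.19 in KO (1.44e-08), and Gadd45g by 2.58 ± 0.12 (2.28e-09) and 2.15 ± 0.13 (4.06e-08). Egr3 rose by 2.60 ± 0.14 in WT (1e-08), and its KO response was lower (-1.08 ± 0.21, 0.0325). The Egr1 probe rose by 2.42 ± 0.17 in WT (6.82e-08) and 1.09 ± 0.18 in KO (2.65e-04), also a lower KO response (-1.33 ± 0.25, 0.0241). The median change of this list at 3 h was 0.98 in WT and 0.46 in KO. From 3 to 6 h 17 of the 25 genes fell in WT, where 12.7% of all genes did, and in KO 6 fell and 2 rose, where 11.7% of all genes fell and the median was -0.20 against -0.40 in WT. The limma test of the difference between these steps called 0 of the 25, with 7 at an unadjusted p under 0.05.

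The genes outside the 8 whose group means ran most like those of each AP-1 gene were found by Pearson's r over the 8 groups. The 8 were not compared with each other here. This is a description with no test, since the groups share the time course. For Fos they were Itga5 (0.990), Gadd45a (0.987) and Coq10b (0.987), and for Junb Gadd45a (0.992), Trpv4 (0.991) and Socs3 (0.990). Fosl2 ran most like Katnbl1 (0.996), Gadd45g (0.990) and Rassf1 (0.987), and Atf3 like Trib3 (0.996), Arid5a (0.994) and Foxf1 (0.991). For Jun they were Pim3 (0.992), Hexim1 (0.990) and Ell (0.989), and for Jund Csrnp3 (0.993), Nol4l (0.993) and Otub2 (0.988). Fosb ran most like Foxf1 (0.990), Cdc42bpb (0.989) and Cplx1 (0.989), and Maff like Adcy4 (0.982), Crem (0.982) and Supt5 (0.977). Foxf1 spanned only 0.22 over its group means, so that likeness is one of shape and not of size.

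No searched motif was in the windows of all 8 genes, and TGACG was the most frequent, in 5 of them. Each RefSeq window runs from 250 bases before to 50 after a start, and all 8 genes matched, with 10 windows. TGACG was found on either strand in windows of Fos, Fosb, Junb, Atf3 and Maff, where 20.9% of the 32544 windows of all genes hold it. That share is of single windows, and Maff has 3. In Fos the copies start 129 and 66 bases before the start, in Fosb 60, in Junb 106, and in Atf3 CGTCA starts 7 before. The full TGACGTCA, in which TGACG lies, was found 29 bases before the second Maff start, where 1.8% of windows hold it. GCGNGGGCG was found in 3 of the 10 windows, those of Fosb (50 bases before), Fosl2 (79) and the second Maff start (88), where 5.6% of windows hold it. The bases G and C made up 68.3%, 64.7% and 61.3% of these windows, against a median of 53.0% over all windows. TATAAA was found 33 bases before the start of Fos and at the start of Junb, where 13.6% of windows hold it. The AP-1 site TGACTCA (5.19% of windows), the estrogen response element, searched in its full palindromic form (0.0707%), and the CArG box that serum response factor binds (1.64%) were not among the letters of any of the 10 windows. The windows of Jun and Jund held none of these motifs in the letters searched. Variant forms were not searched. For example, TGACATCA, close to TGACGTCA, stands in the window of Jun and in that of the third Maff start. Bases further than 250 before a start were not searched, so an absence here does not speak for the rest of a promoter. Both strands were searched, and a match is a description of letters and not of binding.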

How the data were processed

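Total RNA of 17 mouse uterus samples was measured on Illumina MouseWG-6 v2 arrays. The deposited table holds log2 values of 45281 probes, exported from BeadStudio (version not given), per the submitters' processing notes. Its columns have identical quantiles, so the authors had normalized between arrays, and no further normalization was applied. Array values carry no count of molecules, and 2 to 3 arrays a group limit the precision. The annotation named 34885 probes with 1 symbol, and probes with several or none were left out. Each gene was taken at its brightest probe above the array median on 2 or more arrays, which left 14737 genes. Group means of all 8 groups were fitted with limma 3.58.1 (R 4.3.3), eBayes without a trend, two-sided, with Benjamini-Hochberg adjustment over all genes and 9 residual degrees of freedom. The script was tested on simulated data. Besides the 8 genes and the 3 outside them most alike to each, up to 4 called genes per list and comparison are named, by size of change. The members and lists were chosen with earlier results of these data known. Alternatives changed the filter, probe choice, centring, weights, prior, block and arrays. The differences in steps between times were added after values had been seen. Promoters and motifs come from RefSeq windows on GRCm38.p6, without those of chromosome 18, and protein sequences were not used here.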

Additional observations from a re-analysis of the deposited data

Results flagged for a closer look

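Fosl2 was singled out because its response differed between the genotypes by the direct test. Its KO change at 3 h was lower than that of WT (-0.47 on the log2 scale), as was that at 24 h (-0.77), and the limma F-test over the 3 times gave an adjusted p of 0.00224. Its fall from 6 to 24 h was larger in KO (-0.74). WT 24 h arrays read 11.35 and 11.44 and KO 24 h arrays 10.89 and 10.81, while the KO arrays at 0 h were the higher ones (11.29 and 11.23 against 10.97 and 11.11). Fos was singled out by the same F-test (adjusted p = 0.0402) and by its larger fall from 6 to 24 h in KO (-1.43). KO 6 h replicate 2, at 11.98, was its highest array of that time, against 11.40 for replicate 1 and 10.79 and 10.74 in WT. The comparisons of the fall from 6 to 24 h, for Fosl2 and Fos alike, were added after values had been seen. Both Fos calls were lost in most cases when a single array was left out, as given above. Groups of 2 or 3 arrays are too small for a test of single outlying arrays.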

How the results depend on the processing

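Over 152 results of the 8 genes, 69 of them called, 2442 values were recomputed under alternatives. Of these 2267 kept their side of the threshold, 66 of them with a turned sign but no call in either setting, 121 were no longer past it, 41 were newly past it and 13 called values turned sign. A second probe exists for 3 genes (Fosl2, Junb and Maff), all dim, and at 3 h in WT none of the 3 was called with it, while the 5 genes with 1 probe were as before. With it, the counts were 5 genes in WT at 3 h, 3 at 6 h, 5 from 3 to 6 h and 4 from 6 to 24 h. In KO it called 3 at 6 h, 2 at 24 h and 5 from 6 to 24 h, and between the genotypes 1 at 3 h and 0 at 24 h. It called 0 interactions at 3 h and 0 at 24 h, 1 over all times and 1 difference in the fall from 6 to 24 h. It turned Junb in WT at 3 h (-0.04) and 6 h (-0.07) and in KO at 3 h (-0.04), from 3 to 6 h (0.07) and from 6 to 24 h (0.05). It turned Fosl2 in WT from 3 to 6 h (0.03) and from 6 to 24 h (0.05) and KO against WT at 3 h (0.06). Centring on housekeeping genes called 3 genes in WT at 6 h, 6 at 24 h, 7 in KO at 24 h, 0 between genotypes at 3 h and 0 at 6 h, 0 interactions at 3 h and 1 difference in the fall from 6 to 24 h. It turned Maff at 6 h in WT (-0.04) and KO (-0.07), Fosl2 at 24 h in WT (-0.16), and Jund at 24 h in WT (-0.38) and KO (-0.61). Its shift of the groups ran from -0.30 to 0.34. Fitting only the groups compared called 1 gene in KO from 3 to 6 h, 0 between genotypes at 3 h, 0 at 6 h and 3 at 24 h, and 0 interactions at 3 h and 3 at 24 h. Array weights called 0 genes between genotypes at 3 h, 3 at 6 h and 3 at 24 h, 0 interactions at 3 h, 5 over all times and 5 differences in the fall from 6 to 24 h. A trended robust prior called 1 gene between genotypes at 3 h, 0 interactions at 3 h and 1 over all times. The mean over probes called 1 gene between genotypes at 3 h and 0 interactions at 3 h, and centring on the median of the genes tested 1 gene between genotypes at 3 h. The cause of these changes was not tested. The fit of only the groups compared had fewer samples and its own estimate of the spread.

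Deviations of same-numbered samples of different groups had a median r of -0.00 (56 pairs, r from -0.19 to 0.31, 11 over 0.1). With so few arrays a group, these values cannot decide whether the numbers pair samples. With the replicate block 0 genes were called between genotypes at 3 h and 0 interactions at 3 h, and with the replicate block by title letter 1 gene at 3 h. Among single results, the replicate block called Fos at 6 h between genotypes (0.92, adjusted p = 0.0459) and lost Jund there (0.0701).

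Leaving out 1 array at a time gave 8 genes called in WT at 3 h in every case, 4 to 6 at 6 h, 2 to 3 at 24 h, 6 to 7 from 3 to 6 h and 4 to 7 from 6 to 24 h. In KO it gave 6 to 8, 5 to 6 and 2 to 4 at those times, 1 to 5 from 3 to 6 h and 7 from 6 to 24 h in every case. Between genotypes it gave 0 to 1 at 0 h, 1 at 3 h, 0 to 4 at 6 h and 1 at 24 h. Interactions numbered 0 to 1 at 3 h, 0 at 6 h, 1 at 24 h and 1 to 4 over all times, and differences in steps 0 to 2 from 3 to 6 h and 1 to 4 from 6 to 24 h. An array left alone in its group was assumed to vary like the other groups. Fosb and Maff lie near the array median, where signal over background limits what can be read from small changes.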
